A study of Mus musculus with 6 samples.

Results

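Chemokines and their receptors were examined in spleen RNA-seq libraries of NOD.B10 mice, which develop a disease like primary Sjögren's syndrome (pSS), and of BL/10 controls. The genes were chosen by symbol alone. All genes named Ccl, Cxcl, Xcl or Cx3cl with a number were taken as ligands, those named Ccr, Cxcr, Xcr or Cx3cr with a number as receptors, and those named Ackr as atypical receptors, and Ccl19, Ccl21a, Cxcl13, Ccr7 and Cxcr5 were left out. This gave 58 of the 47729 genes in the table. By name, 37 of them were classed as ligands, 17 as conventional receptors and 4 as atypical receptors. The ligands were 23 CC, 12 CXC and 2 of the C or CX3C type. The pseudogenes Ccl19-ps1 and Ccl19-ps3 were counted with the CC ligands. The NOD.B10 strain (NOD.B10Sn-H2b/J) carries the H2b haplotype on the NOD background, and the control strain is C57BL10/SnJ. All 6 mice were females for which no treatment is given, with 3 libraries of separate mice for each strain. The study describes NOD.B10 mice of 26 weeks and controls matched for age, whereas the sample labels give 36 weeks for BL/10 replicates 2 and 3, so that age and strain cannot be fully told apart.

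The strain of each library was read from its description, which matches the column names of the table, apart from a suffix in BL/10 replicate 3 that was matched by its library number and strain. The titles and strain fields name the other strain for all 6 libraries, and under the titles every direction given here would be reversed. Ifi202b, an interferon-inducible gene, had 838, 624 and 485 counts in the NOD.B10 libraries and 2, 0 and 0 in the BL/10 libraries. Total counts ranged from 15662712 to 18298451 per library, and a count of 3, the floor used for detection, was between 0.163 and 0.201 CPM (counts relative to the library size, normalized by the TMM method), a limit that covers counting error only. The 58 genes together held between 0.148% and 0.182% of the counts of a library.

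Genes of the main splenic populations were expressed in all libraries. The 12 B cell genes summed to 4369.9 to 5627 CPM in NOD.B10 and 3333 to 5799 CPM in BL/10, and the 15 monocyte and macrophage genes to 6886 to 8238 and 6949 to 7051 CPM. No B cell gene passed the threshold given below, whereas 2 of the 15 monocyte and macrophage genes were higher and 4 lower in NOD.B10. Genes of other cell types also differed between the strains, among them 8 of 12 plasma cell genes, which were higher in NOD.B10. Of 20 T cell genes, 17 were higher in NOD.B10 and the list median was 1.29 on the log2 scale (summed level 1422 to 1887 CPM in NOD.B10 and 648 to 892 CPM in BL/10). All 14 neutrophil genes and 12 of 14 eosinophil, basophil and mast cell genes were lower, with medians of -1.83 and -2.19. Pancreas acinar genes, which mark tissue beside the spleen, summed to 13668, 2102 and 111 CPM in BL/10 replicates 1, 2 and 3 and to 22.3 to 31.3 CPM in NOD.B10. The part of these differences in the results for the chemokine genes was not tested, and in whole spleens fewer cells of a type and less RNA per cell cannot be told apart.

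Chemokines are small secreted proteins that direct the movement of leukocytes. They are grouped by the spacing of their first conserved cysteines into the CC, CXC, C and CX3C types, and they act on receptors of the G protein-coupled family that signal mainly through inhibitory G proteins. Ligands often share receptors, and most receptors bind several ligands. Atypical chemokine receptors bind chemokines without this signaling and take up or transport them. In the spleen, chemokines position lymphocytes and dendritic cells in the white pulp and hold or release myeloid cells in the red pulp.

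The regulatory sequence in front of these genes was examined first. RefSeq promoters (build GRCm38.p6, C57BL/6J) were available for 43 of the 58 genes, with 50 start sites in all, and the 250 bases before each start site were searched on both strands. NF-kB sites, written as GGG and TTTCC with any 2 bases between them, were found before 12% of these start sites and before 1.41% of all 32851 start sites. They lay in front of Ccl20, Ccl9, Ccr3, Cxcl1, Cxcl2 and Cxcl3. The interferon-stimulated response element, written as TTTC repeated after any 2 bases, was found in front of Cxcl10 and Cxcl14 (4% of the start sites against 2.98% of all), the gamma-activated sequence TTCNNNGAA in front of Ccl17, Ccr1l1, Ccr6 and Cxcl14 (8% against 7.02%), and the TATA box TATAAA in front of 14 genes (28% against 12.37%). Neighboring chemokine genes are related by duplication, so these shares describe the family and are not independent counts. A match of letters does not show that a factor binds there. The 4 sequences shown are those of Ccr6, Cxcl14 and Ccr1l1, which passed the threshold in the comparison of the strains, hold these letters and have a window outside the annotated gene, and of Cxcl10, a widely studied interferon-inducible gene. Capitals mark the matches, and the NOD alleles may differ from these bases.
Ccr6 (chr17:8235793-8236042, plus strand): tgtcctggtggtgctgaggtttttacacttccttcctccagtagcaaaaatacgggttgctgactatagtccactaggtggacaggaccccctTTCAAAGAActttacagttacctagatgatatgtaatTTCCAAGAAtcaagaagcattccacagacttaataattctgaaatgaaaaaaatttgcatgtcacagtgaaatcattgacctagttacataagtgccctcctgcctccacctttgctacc
Cxcl14 (chr13:56296552-56296801, minus strand): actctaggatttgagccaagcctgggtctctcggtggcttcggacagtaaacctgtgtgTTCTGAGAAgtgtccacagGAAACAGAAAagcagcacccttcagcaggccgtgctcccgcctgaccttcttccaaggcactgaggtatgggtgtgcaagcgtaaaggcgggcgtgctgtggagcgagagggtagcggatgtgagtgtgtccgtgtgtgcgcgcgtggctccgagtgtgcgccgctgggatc
Ccr1l1 (chr9:123986716-123986965, minus strand): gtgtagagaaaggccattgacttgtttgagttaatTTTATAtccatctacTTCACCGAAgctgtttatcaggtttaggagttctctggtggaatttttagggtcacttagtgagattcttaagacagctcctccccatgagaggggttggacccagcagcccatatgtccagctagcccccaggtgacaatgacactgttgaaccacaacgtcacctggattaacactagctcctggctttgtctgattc
Cxcl10 (chr5:92348890-92349139, minus strand): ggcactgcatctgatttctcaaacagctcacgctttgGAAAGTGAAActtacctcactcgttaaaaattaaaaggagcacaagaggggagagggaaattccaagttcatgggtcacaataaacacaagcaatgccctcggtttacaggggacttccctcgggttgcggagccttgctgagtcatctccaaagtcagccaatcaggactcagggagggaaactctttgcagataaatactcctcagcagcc
The Ccr6 sequence holds the gamma-activated sequence at 2 places, the first beginning 157 bases before the start site. A further Ccr6 window (chr17:8242276-8242525), which lies inside the annotated gene, held none of these motifs. In Cxcl14 the gamma-activated sequence begins 191 and the response element 172 bases before the start site, and in Cxcl10 the response element begins 213 bases before it. The Ccr1l1 window, which lies before a RefSeq start site upstream of the gene as annotated here, holds a TATA box and a gamma-activated sequence that begin 215 and 200 bases before the start site.

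The strains were compared to ask which chemokine genes differ between NOD.B10 and BL/10 spleens. In this design disease and strain cannot be told apart. Of the 58 genes, 41 had enough counts to be tested, and 9 of these (22.0%) passed the threshold of 0.05 on the adjusted p of the edgeR quasi-likelihood fit, which 17.3% of all 15330 tested genes passed. Higher in NOD.B10 were Cxcl14, Ackr4, Ccl19-ps1, Ccr6 and Ccl22 (5 genes, with a share of 9.11% of all tested genes in that direction), and lower were Ccl24, Ccl11, Ccr1l1 and Ccl5 (4 genes, with 8.22% of all tested genes). The share was therefore near that of all genes. CC ligands accounted for 5 of the 9 genes, with 2 higher and 3 lower of 12 tested, and the pseudogene Ccl19-ps1 was among the higher. By contrast, 1 of 7 CXC ligands, neither of 2 C or CX3C ligands, 2 of 16 conventional receptors and 1 of 4 atypical receptors passed. The 12 CC ligands had a median log2 fold change of -0.35 and 10 of them lay below 0 (Ccl2, Ccl8 and Ccl25 not under all settings), whereas the 20 receptors had a median of 0.38 and 14 of them lay above 0, beside a median of 0.00 (6e-04) over all tested genes. In 19 of the 41 genes the 3 libraries of one strain all lay on one side of those of the other (13 with NOD.B10 above and 6 below), as in 38% of all tested genes (20.5% above and 17.5% below).

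**Figure D1:**
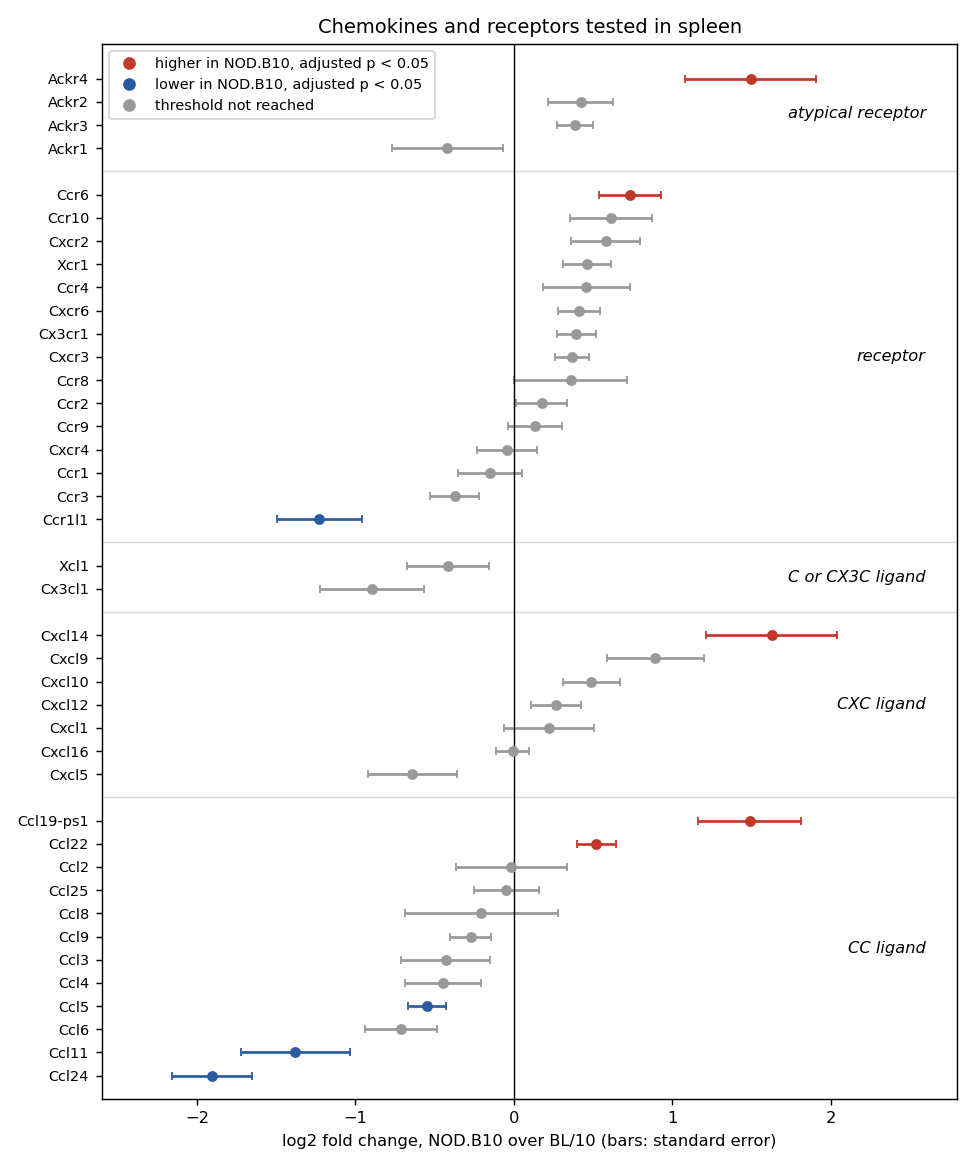
Log2 fold changes of NOD.B10 over BL/10 for the tested chemokine genes reported here (horizontal axis), grouped by role, with bars of 1 standard error from edgeR. Red and blue points passed an adjusted p of 0.05. Most CC ligands lie left of 0 and most receptors right of it, with Ccl24 the lowest at -1.91 and Cxcl14 the highest at 1.63.

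The eotaxins attract eosinophils through the receptor CCR3, and both eotaxin genes tested were lower in NOD.B10 spleens. Ccl24 (ENSMUSG00000004814, on chromosome 5 from 135569937 to 135573049 of GRCm38) encodes eotaxin-2 and had 1.85, 1.78 and 2.70 CPM in NOD.B10 and 6.63, 10.3 and 6.99 CPM in BL/10. All NOD.B10 libraries lay far below all BL/10 libraries, with means of 2.11 ± 0.509 CPM (SD, n = 3) against 7.98 ± 2.04 CPM (SD, n = 3, with log2 fold change -1.91 ± 0.25 SE, edgeR adjusted p = 0.00268). Ccl11 (ENSMUSG00000020676, on chromosome 11 from 82057823 to 82062955), the gene of eotaxin-1, had 9, 7 and 13 counts in the NOD.B10 libraries and 20, 20 and 36 in the BL/10 libraries, or 0.538, 0.430 and 0.730 CPM in NOD.B10 and 1.09, 1.34 and 2.05 CPM in BL/10. These groups did not overlap either (log2 fold change -1.38 ± 0.35 SE, edgeR adjusted p = 0.0325), but the levels were low. Their receptor gene Ccr3 had 90.6, 85.6 and 77.2 CPM in NOD.B10 and 86.8, 133 and 108 CPM in BL/10. NOD.B10 replicate 1 lay above BL/10 replicate 1, and Ccr3 missed the threshold (log2 fold change -0.37 ± 0.15 SE, edgeR adjusted p = 0.135), although its adjusted p in edgeR was 0.0189 without BL/10 replicate 1. The third eotaxin gene, Ccl26, had at most 2 counts in a library and was not tested. Eosinophil granule genes were lower by a larger factor than Ccr3. Prg2, which encodes the major basic protein, had 75.8, 95.9 and 65.8 CPM in NOD.B10 and 439, 815 and 656 CPM in BL/10, and Ear6, an eosinophil-associated ribonuclease gene, had 4.96, 6.82 and 4.44 CPM in NOD.B10 and 77.0, 159.9 and 109 CPM in BL/10. Their part in the lower eotaxin levels was not tested. Among the chemokine genes called, Ccl24 was the one that passed the threshold under all 15 other settings, with a highest adjusted p of 0.0231 in edgeR without both 36-week libraries. For Ccl11 the adjusted p was 0.017 without BL/10 replicate 1 and between 0.0636 and 0.116 in edgeR without any of the other 5 libraries. Without both 36-week libraries the log2 fold change of Ccl11 in edgeR was -0.92.

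**Figure D2:**
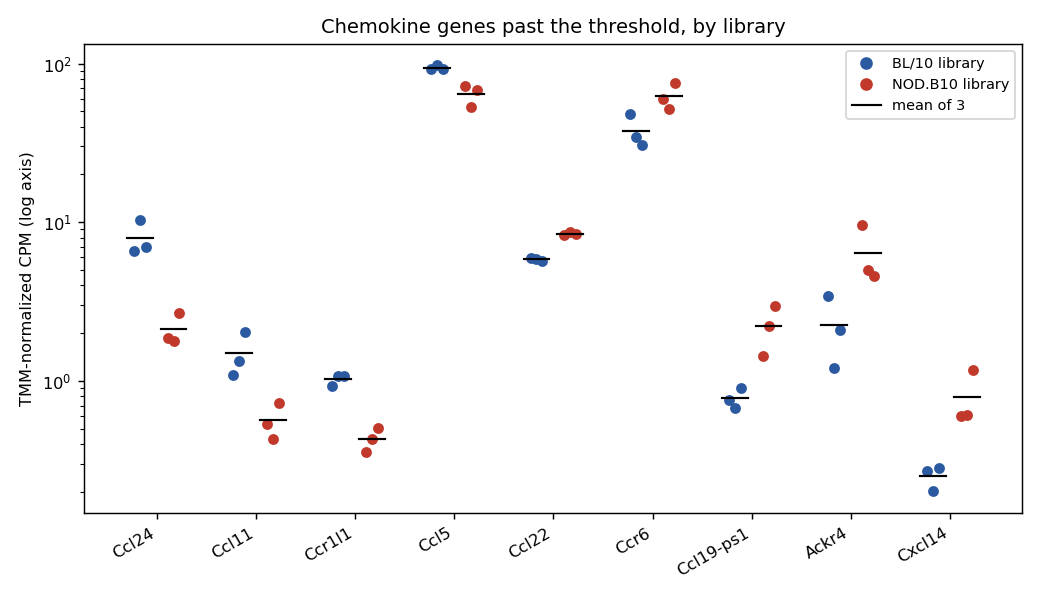
TMM-normalized CPM on a log axis of the 9 chemokine genes with an adjusted p under 0.05, with 1 point for each library and a line at the mean of 3. The groups do not overlap in any of the 9 genes, and those of Ccl24 leave a gap from 2.70 CPM at most in NOD.B10 to 6.63 CPM at least in BL/10.

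Ccl5 (ENSMUSG00000035042, on chromosome 11 from 83525778 to 83530518) encodes RANTES, a product of T cells, NK cells and macrophages that binds CCR1 and CCR3 among others. It had 71.9, 52.9 and 68.0 CPM in NOD.B10 and 92.7, 97.4 and 91.8 CPM in BL/10, and all NOD.B10 libraries lay below the BL/10 libraries, which were close to each other. The means were 64.3 ± 10.1 CPM (SD, n = 3) against 94.0 ± 3.02 CPM (SD, n = 3, with log2 fold change -0.55 ± 0.12 SE, edgeR adjusted p = 0.0209). This difference was in the opposite direction to that of the T cell genes. Without NOD.B10 replicate 3 or BL/10 replicate 2, the adjusted p of Ccl5 in edgeR was 0.0511 or 0.0568, and without both 36-week libraries it was 0.151. Ccl3 and Ccl4, which encode the inflammatory ligands MIP-1α and MIP-1β, were expressed at low levels. Ccl3 had 1.85, 1.60 and 0.955 CPM in NOD.B10 and 2.06, 1.68 and 2.16 CPM in BL/10 (log2 fold change -0.43 ± 0.28 SE, edgeR adjusted p = 0.316), and Ccl4 had 2.21, 1.47 and 1.91 CPM in NOD.B10 and 2.99, 2.62 and 2.05 CPM in BL/10 (log2 fold change -0.45 ± 0.24 SE, edgeR adjusted p = 0.23). In both genes the libraries of the strains overlapped. The receptor gene Ccr1, found on monocytes and neutrophils, overlapped as well, with 33.7, 26.2 and 19.2 CPM in NOD.B10 and 25.9, 33.3 and 28.6 CPM in BL/10 (log2 fold change -0.15 ± 0.20 SE, edgeR adjusted p = 0.634).

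Ccl6 and Ccl9 encode 2 further ligands of CCR1 made by mouse myeloid cells. Ccl6 had 83.1, 65.7 and 47.5 CPM in NOD.B10 and 93.3, 136 and 92.6 CPM in BL/10. All NOD.B10 libraries lay below the BL/10 libraries, but the spread within each strain was wide and the threshold was not reached (log2 fold change -0.71 ± 0.23 SE, edgeR adjusted p = 0.0674). Its adjusted p was 0.0178 with DESeq2 and 0.0465 in edgeR without BL/10 replicate 1. Ccl9 had 21.2, 19.0 and 18.4 CPM in NOD.B10 and 20.6, 22.8 and 27.3 CPM in BL/10, with overlap between the strains (log2 fold change -0.27 ± 0.13 SE, edgeR adjusted p = 0.181). The neutrophil genes, which were lower in NOD.B10 at 2447 to 2787 against 6735 to 14210.3 CPM summed over the list, moved in the same direction as Ccl6, and their part in its values was not tested.

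Among the CC ligands, Ccl22 and Ccl19-ps1 were higher in NOD.B10. Ccl22 (ENSMUSG00000031779, on chromosome 8 from 94745590 to 94751699) is produced by dendritic cells and macrophages and attracts regulatory and Th2 cells through CCR4. It had 8.25, 8.66 and 8.37 CPM in NOD.B10 and 5.97, 5.90 and 5.74 CPM in BL/10, so that both groups were tight and well apart (log2 fold change 0.52 ± 0.12 SE, edgeR adjusted p = 0.0261). Its adjusted p in edgeR was 0.035 without BL/10 replicate 1 and between 0.0705 and 0.0899 without any of the other 5 libraries. Ccl17, the other CCR4 ligand, had only 4, 4 and 4 counts in the NOD.B10 libraries and 6, 5 and 7 in the BL/10 libraries and was not tested. The receptor gene Ccr4 had 5.14, 5.77 and 4.33 CPM in NOD.B10 and 3.91, 4.90 and 2.33 CPM in BL/10, with overlapping libraries (log2 fold change 0.46 ± 0.27 SE, edgeR adjusted p = 0.274).

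Ccl19-ps1 (ENSMUSG00000082902, on chromosome 4 from 41921405 to 41923020) is annotated as a pseudogene of Ccl19 within a region of chromosome 4 that holds several copies of Ccl19, Ccl21 and Ccl27 genes. It had 24, 36 and 53 counts in the NOD.B10 libraries and 14, 10 and 16 in the BL/10 libraries, which did not overlap (log2 fold change 1.49 ± 0.33 SE, edgeR adjusted p = 0.0199). Of its possible 50-base windows, the length of a read here, 46.0% also occur in transcripts of other genes, among them Ccl19-ps3. Reads that fit several copies were left out of the counts, so the level of Ccl19-ps1 is uncertain. Its adjusted p in edgeR stayed under the threshold without NOD.B10 replicate 1 or BL/10 replicate 1 (0.0176 and 0.0334) and was between 0.0504 and 0.071 without any of the other 4 libraries. The copies Ccl19-ps3, Ccl21b and Ccl27b had no counts in any library. Of their windows, 100%, 100% and 98.1% are shared with other transcripts, so reads of these copies could hardly have been counted and the zeros say little about expression.

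The other CC ligands tested overlapped between the strains. Ccl2, the gene of MCP-1, which draws monocytes out of the marrow through CCR2, had 21, 11 and 20 counts in the NOD.B10 libraries and 15, 22 and 15 in the BL/10 libraries (log2 fold change -0.02 ± 0.35 SE, edgeR adjusted p = 0.982). Its receptor gene Ccr2 was well expressed, with 91.1, 78.0 and 76.8 CPM in NOD.B10 and 68.1, 90.5 and 59.3 CPM in BL/10 (log2 fold change 0.18 ± 0.16 SE, edgeR adjusted p = 0.473). Ccl8, a further monocyte attractant, was highest in BL/10 replicate 1, with 2.03, 2.58 and 1.12 CPM in NOD.B10 and 3.80, 1.27 and 1.42 CPM in BL/10 (log2 fold change -0.20 ± 0.48 SE, edgeR adjusted p = 0.796). Ccl25, the thymic and intestinal ligand of CCR9, had 3.53, 4.79 and 4.33 CPM in NOD.B10 and 3.53, 5.10 and 4.49 CPM in BL/10 (log2 fold change -0.05 ± 0.20 SE, edgeR adjusted p = 0.891). The receptor gene Ccr9 had 14.8, 16.2 and 20.96 CPM in NOD.B10 and 14.8, 18.7 and 13.9 CPM in BL/10 (log2 fold change 0.14 ± 0.17 SE, edgeR adjusted p = 0.616). None of these 5 genes reached the threshold in any setting.

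Cxcl14 (ENSMUSG00000021508, on chromosome 13 from 56288647 to 56296551), a ligand made mainly by epithelial and stromal cells, was the single CXC ligand called. It had 10, 10 and 21 counts in the NOD.B10 libraries and 5, 3 and 5 in the BL/10 libraries, which did not overlap but were few (log2 fold change 1.63 ± 0.41 SE, edgeR adjusted p = 0.0341). NOD.B10 replicate 3 held about as many counts as the other NOD.B10 libraries together. The adjusted p was 0.0479 in edgeR without NOD.B10 replicate 2, between 0.0556 and 0.106 without any of the other 5 libraries, and 0.0766 with DESeq2.

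Cxcl9 and Cxcl10 are induced by interferons and attract activated T and NK cells through CXCR3. Cxcl9 had 144, 79.7 and 66.6 CPM in NOD.B10 and 58.2, 61.2 and 36.9 CPM in BL/10, with every NOD.B10 library above every BL/10 library and NOD.B10 replicate 1 far above the other 5. It missed the threshold (log2 fold change 0.89 ± 0.31 SE, edgeR adjusted p = 0.0838), although its adjusted p was 0.0209 with DESeq2. Cxcl10, whose exons overlap those of Art3 over 5.91% of their bases, had 32.8, 21.2 and 22.5 CPM in NOD.B10 and 17.5, 16.8 and 20.2 CPM in BL/10 and also did not overlap between the strains (log2 fold change 0.49 ± 0.18 SE, edgeR adjusted p = 0.0986). Cxcl11, the remaining CXCR3 ligand, had 2 to 6 counts per library, and 41.7% of its exon bases overlap Gm2673. The receptor gene Cxcr3 had 24.7, 21.3 and 21.6 CPM in NOD.B10 and 18.7, 17.03 and 16.6 CPM in BL/10, a small and separated difference just short of the threshold (log2 fold change 0.37 ± 0.11 SE, edgeR adjusted p = 0.0512) that passed in edgeR without BL/10 replicate 1 (0.0383). The T cell genes were higher in NOD.B10 by a larger factor than Cxcr3, and their part in its values was not tested.

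Cxcl12, also called SDF-1, retains hematopoietic cells and lymphocytes in bone marrow and spleen through CXCR4. It held between 28.3% and 37.8% of the counts of all 58 genes in a library. Its level was 591, 537 and 659 CPM in NOD.B10 and 422, 459 and 605 CPM in BL/10, where BL/10 replicate 3 lay within the range of NOD.B10 (log2 fold change 0.27 ± 0.16 SE, edgeR adjusted p = 0.274). Cxcr4, expressed on nearly all leukocytes, had 125, 152 and 209 CPM in NOD.B10 and 188, 161 and 151 CPM in BL/10. These groups overlapped widely, with NOD.B10 replicates 1 and 3 as the lowest and the highest of all libraries (log2 fold change -0.04 ± 0.19 SE, edgeR adjusted p = 0.895). Ackr3, the scavenger receptor for this ligand, had 83.5, 63.1 and 78.3 CPM in NOD.B10 and 57.6, 55.6 and 58.6 CPM in BL/10. All NOD.B10 libraries lay above BL/10, but Ackr3 did not reach the threshold in edgeR (log2 fold change 0.39 ± 0.11 SE, edgeR adjusted p = 0.0531), whereas DESeq2 gave 0.0383 and edgeR without NOD.B10 replicate 2 gave 0.0196 as its adjusted p.

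Cxcl16, a membrane-bound ligand on dendritic cells and macrophages, was nearly level between the strains, with 41.5, 38.5 and 39.1 CPM in NOD.B10 and 44.8, 35.7 and 39.2 CPM in BL/10 (log2 fold change -0.01 ± 0.10 SE, edgeR adjusted p = 0.967, 95% interval of the log2 fold change from -0.29 to 0.28). Exons of Zmynd15 overlap 18.3% of its exon bases. The receptor gene of Cxcl16, Cxcr6, a marker of activated T and NKT cells, had 30.5, 25.9 and 29.2 CPM in NOD.B10 and 19.3, 25.3 and 19.8 CPM in BL/10 and missed the threshold (log2 fold change 0.41 ± 0.13 SE, edgeR adjusted p = 0.0681). BL/10 replicate 2 was the highest of its strain. Leaving it out gave an edgeR adjusted p of 0.0296. For the lymphotactin pair, Xcl1, made by T and NK cells, had 2.21, 1.97 and 2.75 CPM in NOD.B10 and 3.26, 3.82 and 2.22 CPM in BL/10 (log2 fold change -0.41 ± 0.26 SE, edgeR adjusted p = 0.292), and Xcr1, found on cross-presenting dendritic cells, had 32.0, 27.0 and 25.5 CPM in NOD.B10 and 19.1, 24.6 and 17.8 CPM in BL/10 (log2 fold change 0.46 ± 0.15 SE, edgeR adjusted p = 0.0729). Xcl1 overlapped between the strains and Xcr1 did not, and without BL/10 replicate 2 the adjusted p of Xcr1 in edgeR was 0.034. The fractalkine pair was also separated by strain. Cx3cl1, expressed by endothelium, had 1.495, 0.676 and 1.80 CPM in NOD.B10 and 2.66, 2.15 and 2.61 CPM in BL/10 (log2 fold change -0.90 ± 0.33 SE, edgeR adjusted p = 0.101), and Cx3cr1, the receptor of patrolling monocytes, had 34.5, 33.8 and 43.8 CPM in NOD.B10 and 29.3, 29.3 and 26.7 CPM in BL/10 (log2 fold change 0.40 ± 0.12 SE, edgeR adjusted p = 0.0605). Neither gene passed under any setting tried.

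The neutrophil attractants Cxcl1 and Cxcl5 and their receptor gene Cxcr2 all missed the threshold. Cxcl1 had 13, 12 and 11 counts in the NOD.B10 libraries and 11, 7 and 13 in the BL/10 libraries (log2 fold change 0.22 ± 0.29 SE, edgeR adjusted p = 0.684) and Cxcl5 had 24, 33 and 23 counts in the NOD.B10 libraries and 49, 26 and 52 in the BL/10 libraries (log2 fold change -0.64 ± 0.28 SE, edgeR adjusted p = 0.151). Both overlapped between the strains. Cxcr2 had 72.9, 55.5 and 38.1 CPM in NOD.B10 and 32.9, 37.4 and 41.1 CPM in BL/10, with NOD.B10 replicate 3 within the range of BL/10 (log2 fold change 0.58 ± 0.22 SE, edgeR adjusted p = 0.106), and its adjusted p in edgeR was 0.0269 without that library. These values stood beside neutrophil genes that all lay lower in NOD.B10. S100a8, a calprotectin subunit, had 526, 607 and 457 CPM in NOD.B10 and 1629.6, 3352 and 2769.9 CPM in BL/10, and Ngp, a granule protein of immature neutrophils, had 202, 247 and 284 CPM in NOD.B10 and 646, 1448 and 1342 CPM in BL/10. No gene of the list was called higher in NOD.B10, and the part of neutrophils in its values was not tested.

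**Figure D3:**
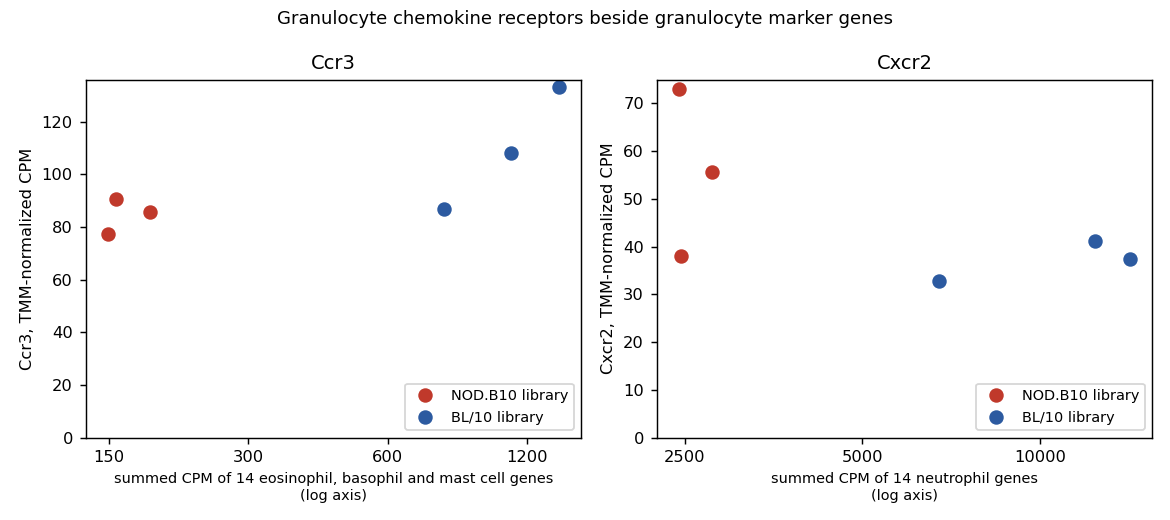
Levels of Ccr3 and Cxcr2 in each library (vertical axis, TMM-normalized CPM) against the summed level of 14 eosinophil, basophil and mast cell genes or of 14 neutrophil genes (horizontal log axis, CPM). The marker sums separate the strains by a wide gap, from 184 to 793 CPM and from 2787 to 6735 CPM, whereas both receptor genes overlap between the strains.

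Of the 16 conventional receptors tested, Ccr6 was higher and Ccr1l1 lower in NOD.B10. Ccr6 (ENSMUSG00000040899, on chromosome 17 from 8236043 to 8257127) is found on mature B cells, Th17 cells and dendritic cells, and its promoter window outside the gene, with 2 matches to the gamma-activated sequence, is given above. It had 60.2, 51.6 and 75.6 CPM in NOD.B10 and 47.8, 34.2 and 30.9 CPM in BL/10, and the lowest NOD.B10 library lay just above the highest BL/10 library, replicate 1. The means were 62.4 ± 12.2 CPM (SD, n = 3) against 37.6 ± 8.97 CPM (SD, n = 3, with log2 fold change 0.73 ± 0.20 SE, edgeR adjusted p = 0.0404). No gene of the B cell list was called in either direction, but 11 of its 12 genes lay above 0. The median of that list was 0.28 on the log2 scale. In the T cell list 17 of 20 genes were called higher (median 1.29), and in the dendritic cell list 0 of 12 were called (median 0.15). The part of these cell types in the level of Ccr6 was not tested. Without BL/10 replicate 1 the adjusted p of Ccr6 in edgeR fell to 0.00781, and without NOD.B10 replicate 2 it was 0.0407. Without any of the other 4 libraries it was between 0.104 and 0.126. Without both 36-week libraries the log2 fold change of Ccr6 in edgeR was smaller, at 0.39. Its only ligand gene Ccl20 had 1 count in BL/10 replicate 1 and none in the other libraries. Ccr1l1 (ENSMUSG00000064039, on chromosome 9 from 123976949 to 123978408), a Ccr1-like gene between Ccr1 and Ccr3, had 6, 7 and 9 counts in the NOD.B10 libraries and 17, 16 and 19 in the BL/10 libraries (log2 fold change -1.23 ± 0.27 SE, edgeR adjusted p = 0.0199). These few counts did not overlap, but the adjusted p was 0.0863 with DESeq2, 0.0259 in edgeR without BL/10 replicate 1, and between 0.0517 and 0.0924 without any of the other 5 libraries. The remaining receptors were at low levels. Ccr10, of plasma cells and skin T cells, had 2.09, 2.33 and 3.32 CPM in NOD.B10 and 1.47, 1.54 and 2.05 CPM in BL/10 (log2 fold change 0.61 ± 0.26 SE, edgeR adjusted p = 0.137), and Ccr8, of regulatory and Th2 cells, had 0.897, 0.491 and 1.01 CPM in NOD.B10 and 0.815, 0.536 and 0.511 CPM in BL/10 (log2 fold change 0.36 ± 0.36 SE, edgeR adjusted p = 0.517).

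Ackr4 (ENSMUSG00000079355, on chromosome 9 from 104084157 to 104126933) encodes a scavenger of CCL19, CCL21 and CCL25 and was the atypical receptor gene called. It had 9.63, 5.04 and 4.61 CPM in NOD.B10 and 3.42, 1.21 and 2.10 CPM in BL/10, with NOD.B10 replicate 1 at about the level of the other NOD.B10 libraries together and BL/10 replicate 1 the nearest of the controls. The difference of 6.42 ± 2.78 CPM (SD, n = 3) against 2.24 ± 1.11 CPM (SD, n = 3) passed the threshold narrowly (log2 fold change 1.49 ± 0.41 SE, edgeR adjusted p = 0.0451). Exons of Acad11 overlap 9.06% of its exon bases. The adjusted p in edgeR was 0.0166 without BL/10 replicate 1 and between 0.0616 and 0.15 without any of the other 5 libraries. Without both 36-week libraries the log2 fold change of Ackr4 in edgeR was 0.91. Ackr2, which degrades inflammatory CC chemokines, had 22.7, 18.4 and 30.2 CPM in NOD.B10 and 20.9, 14.4 and 18.0 CPM in BL/10, with overlap (log2 fold change 0.42 ± 0.21 SE, edgeR adjusted p = 0.189). Ackr1, the Duffy antigen receptor of red cell precursors and venules, had 21.4, 32.4 and 18.5 CPM in NOD.B10 and 16.7, 44.9 and 35.3 CPM in BL/10 (log2 fold change -0.42 ± 0.35 SE, edgeR adjusted p = 0.437). Exons of Cadm3 overlap 25.7% of the exon bases of Ackr1. Its lowest library was BL/10 replicate 1, where the summed level of 12 erythroid genes was 29698 CPM, against 59009 and 67947 CPM in BL/10 replicates 2 and 3, and the part of these cells was not tested.

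To compare genes with each other, counts were divided by the exon length of each gene and scaled to a common total (TPM, a level per length). On this scale Cxcr4 had the highest mean in NOD.B10 and Ccl5 in BL/10. Cxcr4 had 214 ± 64.6 TPM in NOD.B10 and 209 ± 28.3 TPM in BL/10 (SD, n = 3 each). Ccl5 and Cxcl12 were at 159.6 ± 28.8 and 174 ± 24.7 TPM in NOD.B10 and 221 ± 4.49 and 137 ± 26.3 TPM in BL/10. In NOD.B10 the ranges of these 3 genes overlapped, and in BL/10 those of Cxcr4 and Ccl5 did, so these neighbours in the order do not differ beyond their spread. Ccl6 came next by its mean in both strains, with its BL/10 libraries overlapping those of Cxcl12, at 86.3 ± 22.0 and 135 ± 28.0 TPM. Behind it, Ccr6 had 73.6 ± 17.2 TPM and Cxcl9 76.0 ± 32.0 TPM in NOD.B10, and Ccr3 had 75.3 ± 14.2 TPM in BL/10. Of the 58 genes, 22 reached a mean of 10 CPM in at least 1 strain. Of these 22, 2 were among the genes called, Ccl5 and Ccr6, beside 17.3% of all tested genes, which were not limited to that level. The other 7 called genes had means below 10 CPM in both strains.

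**Figure D4:**
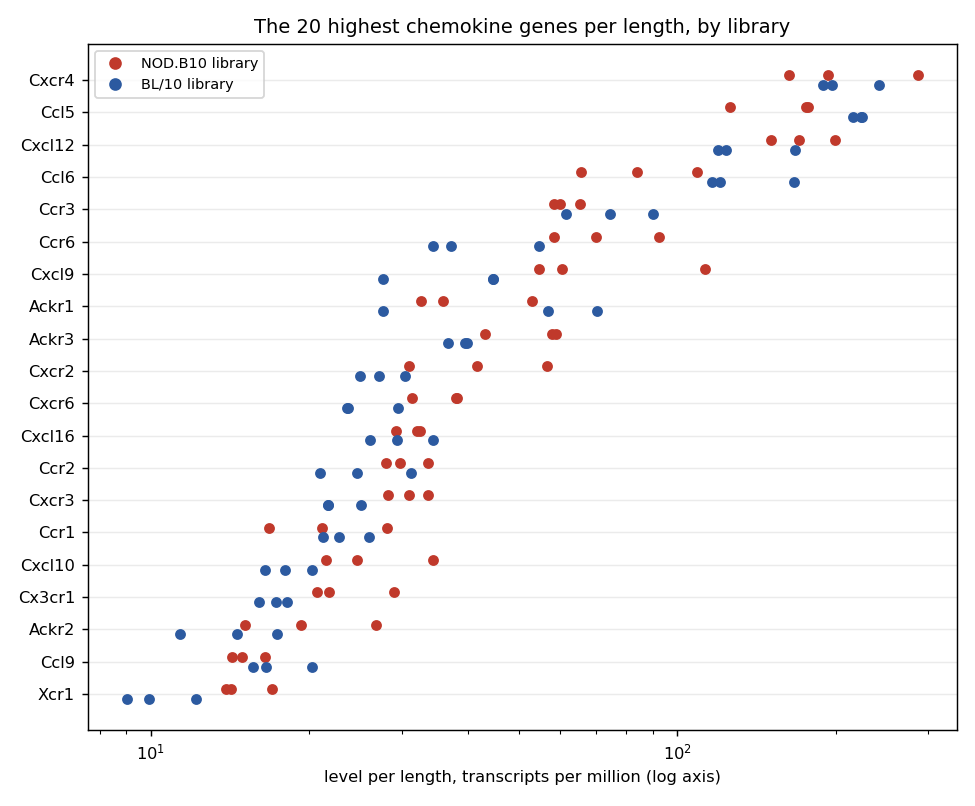
Levels in TPM on a log axis for the 20 chemokine genes with the highest mean over all libraries, with 1 point for each library. Cxcr4, Ccl5 and Cxcl12 have the highest means in both strains, and among the 4 genes at the top Ccl5 and Ccl6 are those with all BL/10 points to the right of the NOD.B10 points.

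Most chemokine genes lie in clusters, and the genes were therefore also compared by position. The CC ligand cluster on chromosome 11, from 82035571 to 83664683, holds 11 of the genes, from Ccl2 to Ccl4. All 8 of them that were tested had a log2 fold change below 0, from -1.38 (Ccl11) to -0.02 (Ccl2) with a median of -0.44, and 2 were called, Ccl11 and Ccl5. The sign of Ccl2 and Ccl8 was not stable, since with limma they were at 0.02 and 0.10, without BL/10 replicate 2 Ccl2 was at 0.29, and without BL/10 replicate 1 Ccl8 was at 0.48, whereas the other 6 genes stayed below 0 under all settings in which they were tested. In the CXC cluster on chromosome 5, from 90759360 to 92365485, 3 of the 4 tested genes lay above 0 and none was called. In the receptor cluster on chromosome 9, the neighbours Ccr1, Ccr1l1 and Ccr3 lay below 0, with Ccr1l1 called, whereas Cx3cr1, Ccr8, Ackr2, Ccr9, Cxcr6, Xcr1 and Ccr2 lay above 0 and were not called. The sign of Ccr1 and Ccr9 turned without NOD.B10 replicate 3 (0.03 and -0.02), and that of Ccr8 without both 36-week libraries (-0.02). Ccl22 and Ccl24, which were called in opposite directions, lie outside these clusters.

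**Figure D5:**
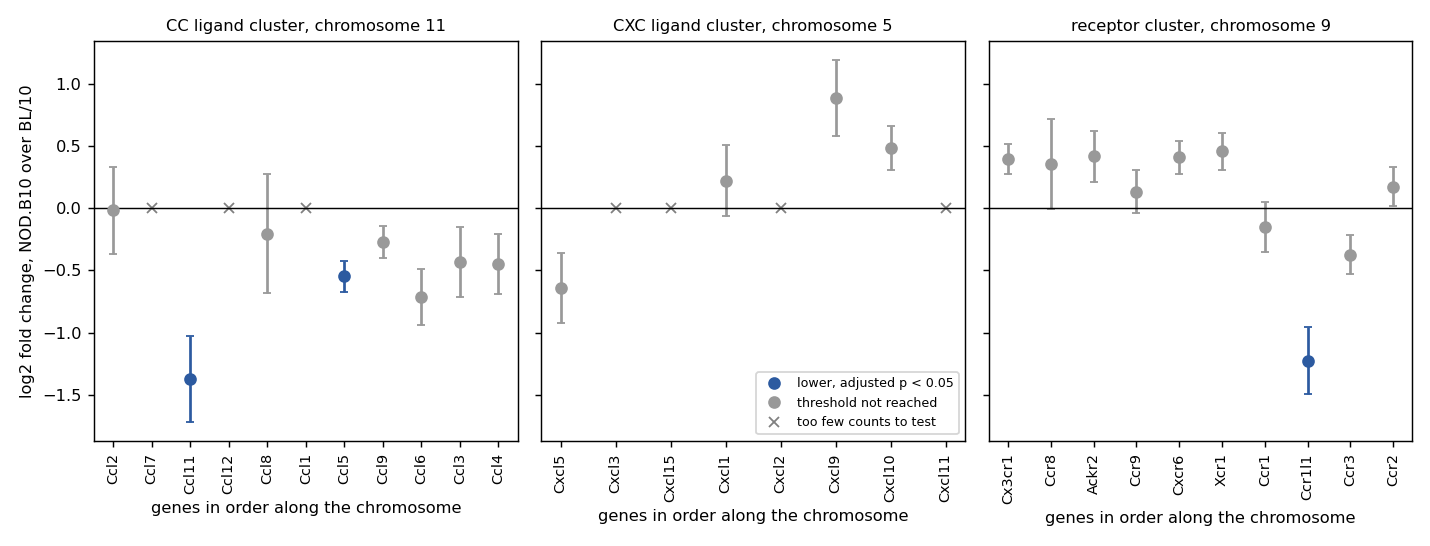
Log2 fold changes (NOD.B10 over BL/10, bars of 1 standard error) of the genes reported here in their order along 3 chemokine clusters, with a cross for genes with too few counts to test. The 8 tested ligand genes on chromosome 11 lie below 0, of which Ccl2 and Ccl8 turned above 0 under other settings, while the genes on chromosomes 5 and 9 lie on both sides.

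The 17 genes not tested had few or no counts. Of these, 5 had no counts in any library (Ccl19-ps3, Ccl21b, Ccl27b, Cxcl15 and Cxcl17). Nearly all windows of Ccl19-ps3, Ccl21b and Ccl27b are shared with other transcripts, so their zeros say little about expression. The other 12 genes had at most 18 counts in a library. Cxcr1, a neutrophil receptor gene, was the highest of these, with 5, 8 and 7 counts in the NOD.B10 libraries and 14, 7 and 18 in the BL/10 libraries. Ccl27a, a skin ligand, had 6, 3 and 8 counts in the NOD.B10 libraries and 15, 9 and 10 in the BL/10 libraries, and Ccl12, a CCR2 ligand, had 5, 6 and 8 counts in the NOD.B10 libraries and 10, 9 and 2 in the BL/10 libraries. For Ccl1, Ccl7, Ccl20, Ccl26, Ccl28, Cxcl2, Cxcl3 and Cxcl11, no library exceeded 7 counts, and no difference was detectable at this depth.

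Known ligand and receptor pairs were then set side by side. Of 31 pairs, both genes were tested in 21. No receptor of these 21 pairs was called, so in no pair could both genes be called. The ligand was called in 5 of the 21 pairs, among them Ccl5 with Ccr1, Ccl11 and Ccl24 with Ccr3, and Ccl22 with Ccr4. Pairs that share a ligand, such as Ccl5, are not independent counts, and 17.3% of all tested genes were called. The only receptor called that is in the pairs, Ccr6, has the ligand Ccl20, which was not tested.

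Other genes of the chemokine pathway were described with a list of 95 genes. It holds genes for G proteins, kinases, exchange factors, arrestins and related migration receptors. It also holds Dpp4, Cklf and the chemokine genes Pf4 and Ppbp, whose symbols fall outside the rule for ligands. All 95 were tested, and 19 were called, 15 higher and 4 lower in NOD.B10, beside a share of 17.3% over all genes. The list had a median of 0.12 on the log2 scale. Prkcz, an atypical protein kinase C, had 13.8, 12.8 and 15.8 CPM in NOD.B10 and 6.03, 4.43 and 3.58 CPM in BL/10 (log2 fold change 1.59 ± 0.20 SE, edgeR adjusted p = 0.00208). Rgs16, a regulator that shortens G protein signaling, had 4.78, 4.73 and 5.11 CPM in NOD.B10 and 2.12, 2.08 and 2.78 CPM in BL/10 (log2 fold change 1.06 ± 0.19 SE, edgeR adjusted p = 0.00852). In both genes the libraries of the strains did not overlap. Elmo1, a partner of the exchange factor DOCK2, had 149.6, 137 and 95.1 CPM in NOD.B10 and 74.4, 61.1 and 69.0 CPM in BL/10 (log2 fold change 0.90 ± 0.17 SE, edgeR adjusted p = 0.0116). S1pr1, the sphingosine phosphate receptor for lymphocyte egress, had 289, 239 and 326 CPM in NOD.B10 and 195, 147 and 167 CPM in BL/10 (log2 fold change 0.75 ± 0.15 SE, edgeR adjusted p = 0.0153), and Adcy7, an adenylate cyclase of leukocytes, had 212, 207 and 230.1 CPM in NOD.B10 and 159, 137 and 136 CPM in BL/10 (log2 fold change 0.58 ± 0.10 SE, edgeR adjusted p = 0.00878). The 4 lower genes were Rgs18, Tiam2, Gng12 and Mapk3. Rgs18, a regulator abundant in platelets and megakaryocytes, had 48.8, 61.4 and 33.7 CPM in NOD.B10 and 129, 83.0 and 73.7 CPM in BL/10 (log2 fold change -0.99 ± 0.27 SE, edgeR adjusted p = 0.0407), and 3 of 12 megakaryocyte and platelet genes were also lower. Tiam2, an exchange factor for the GTPase Rac, had 3.65, 4.36 and 4.50 CPM in NOD.B10 and 6.03, 7.98 and 6.59 CPM in BL/10 (log2 fold change -0.72 ± 0.17 SE, edgeR adjusted p = 0.0287). Gng12, a G protein subunit gene, and Mapk3, the gene of the kinase ERK1, differed less, with log2 fold changes of -0.42 and -0.39. Without NOD.B10 replicate 1, 7 genes of the list were called, and without BL/10 replicate 1, 32.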

How the data were processed

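RNA from the spleens of 6 females, 3 of each strain, was read in 50 base single-end runs. The authors deposited unnormalized counts for each gene, made by featureCounts (version 1.5.1) over exons from Ensembl release 84, build GRCm38. The deposited table also gives the exon length of each gene. Alignment is given as Tophat2 in the methods and as HISAT2 version 2.0.5 in the submitters' processing notes. Reads with several places, or on several genes, were left out, and strand was not used. Symbols from GENCODE M21 matched 47224 of 47729 identifiers.

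Counts were analysed in R version 4.3.3. Genes passing edgeR's filterByExpr (version 4.0.16) were normalized by TMM and the strains compared with a quasi-likelihood fit, adjusted by Benjamini-Hochberg over 15330 genes, a threshold of 0.05 and BL/10 as the reference. The standard error was the log2 fold change over the root of its F value. DESeq2 version 1.42.0 and limma version 3.58.1 gave alternatives, as did other normalizations, filters and thresholds, a replicate block, and fits without each library. With 3 libraries a strain, the fit over all genes was used because an exact test of single genes cannot pass. The procedure was tested on simulated counts. Members and lists were chosen with earlier results of these data known. Any member could be named. By rule, those called, their known partners and those of at least 10 CPM are given by library, as are up to 6 signaling genes each way and up to 3 genes of a marker list with the highest CPM. Members of lower level that complete a pair or family were added after their values were seen. Results of some genes that enter the counts are not reported here. Exon overlaps were taken from the table, and shared 50-base windows from GENCODE transcripts. Of the marker lists not described beside a result, 8 of 12 plasma cell genes were higher, none of 12 dendritic cell genes was called, 1 of 10 NK cell genes was higher and 1 lower, 2 of 15 monocyte and macrophage genes were higher and 4 lower, 1 of 12 erythroid genes was lower, 5 of 14 stromal and endothelial genes were higher, and all 11 tested pancreas acinar genes were lower.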

Additional observations from a re-analysis of the deposited data

How the results depend on the processing

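The 9 chemokine genes called kept their direction under all alternatives in which they were tested, and 1 of them, Ccl24, passed the threshold in all. A further 8 genes passed under at least 1 alternative and 24 under none. With an adjusted p under 0.01, 1 chemokine gene (0 higher and 1 lower), 5 signaling genes and 1035 of all genes were called. Without both libraries labelled 36 weeks, a fit in which the lone BL/10 library is assumed to vary like the NOD.B10 libraries, 1 chemokine gene (0 higher and 1 lower), 5 signaling genes and 1001 of all genes were called. A minimum of 10 counts in every sample left out Ccl11, Ccr1l1 and Cxcl14, which were under that minimum, and left 6 chemokine genes called (2 lower). Across the fits without 1 library, the calls lay between 2 and 11 for the chemokine genes (between 0 and 5 higher and 1 and 6 lower), between 7 and 32 for the signaling list, and between 1269 and 4107 for all genes. The fewest chemokine genes were called without NOD.B10 replicate 3 or BL/10 replicate 3 (2 each), with 3 without NOD.B10 replicate 1 or BL/10 replicate 2, and the cause was not tested. With the replicate number as a block, 13 chemokine genes and 2889 of all genes were called. Correlations of the deviations between libraries of the same number were mixed (0.068, 0.302 and -0.077), and that of replicate 2 was the highest between any NOD.B10 and BL/10 libraries. Since not every library correlated best with its own number, the block was not used further. The check does not decide whether the libraries pair. Of the 58 genes, 17 had too few counts to be compared.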
